A study of Homo sapiens with 6 samples.

Results

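The genes described here are the transcripts of mitosis and of the G2 phase that precedes it: the cyclins and kinases that start division, the checkpoint that holds it, and the kinetochore, motor and spindle proteins that carry it out. They were chosen by symbol, from a list of 41 mitotic kinase, kinesin, checkpoint, centromere and related genes, and the rule uses no measured value. Of the 41, 40 were matched through their Ensembl identifiers to the 19977 genes counted in each library, and the antisense transcript FOXM1-AS1 was not analysed here. The samples were aggregates of NCRM-1, a wild type human induced pluripotent stem cell (hiPSC) line, seeded as single cells and grown for 4 days in suspension in E8 medium, with 50% of the medium replaced on day 2. In 3 samples, called PEG and HS, the E8 medium also held 10 mg/ml polyethylene glycol and 0.1 µg/ml heparin sodium salt, compounds added to limit the fusion of aggregates, and the other 3 were the E8 control. The labels' treatment text names both additives for all 6 samples, so the treatment given for each sample was followed. The sample titles read as 1 bioreactor for each medium: vessel and medium then cannot be told apart, and p-values measure the spread between samples that may share a vessel.

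A dividing cell accumulates cyclins A and B through S and G2 phase, and cyclin B with the kinase CDK1 drives entry into mitosis. The spindle assembly checkpoint then delays the separation of sister chromatids until each kinetochore is attached to microtubules, after which the anaphase-promoting complex (APC/C) marks securin and cyclin B for destruction. Many of these genes are transcribed together late in the cell cycle through the DREAM and MuvB complexes with MYBL2 and FOXM1, and pluripotent stem cells, which divide fast with a short G1 phase, express them at high levels. In bulk RNA, fewer cells of a type or phase and less RNA per cell cannot be told apart.

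The depth was 26991279 to 36185138 counts per library, and the 40 genes were well counted, with 364 to 21361 counts per gene and library. Levels are given as CPM, the usual scale of counts relative to library size, adjusted with TMM factors, which lay between 0.994 and 1.01. The common biological coefficient of variation over all genes was 3.12%, and libraries of the same medium correlated at r = 0.991 to 0.992 across genes on the log2 CPM scale. Differences are log2 fold changes of PEG and HS over E8 control, with a standard error (SE), and a gene was called where the quasi-likelihood test of edgeR gave an adjusted p under 0.05 (Benjamini-Hochberg, over the 16505 genes tested).

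The control regions of these genes share short sequence elements. The letters TTTGAA or TTTAAA are the usual forms of the cell cycle genes homology region (CHR), to which the DREAM and MuvB complexes bind, and CCAAT is the core of the element bound by the factor NF-Y. All were searched on both strands of windows from 250 bases before to 50 bases after each gene's start (RefSeq, GRCh38.p14), where 34 of the 40 genes had a window and AURKA, BUB3, TTK, TPX2, BIRC5 and UBE2C had no entry. TTTGAA or TTTAAA stood in 29 of the 34 windows (85.3%), against 19.4% of the windows of 15321 genes of the count files, and CCAAT in 26 (76.5%) against 36.6%. Both kinds stood together in 23 windows (67.6%), against 7.93% of all windows. Within the 100 bases before the start, 22 of the 34 (64.7%) held TTTGAA or TTTAAA, against 6.64% of all windows. These are matches of letters, not measured binding sites, and a gene can have further starts. The 200 bases before the start are shown for CCNB1, as an example with both kinds of element, and for TOP2A, BUB1 and BUB1B, which differed between the media. Capitals mark the CHR forms and CCAAT on either strand (a CCAAT on the other strand reads ATTGG), and each sequence runs 5′ to 3′ on the gene's own strand.
CCNB1: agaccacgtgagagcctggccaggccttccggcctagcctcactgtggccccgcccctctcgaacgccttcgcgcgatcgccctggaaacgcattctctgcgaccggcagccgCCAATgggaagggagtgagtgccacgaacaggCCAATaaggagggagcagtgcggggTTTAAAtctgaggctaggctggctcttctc
TOP2A: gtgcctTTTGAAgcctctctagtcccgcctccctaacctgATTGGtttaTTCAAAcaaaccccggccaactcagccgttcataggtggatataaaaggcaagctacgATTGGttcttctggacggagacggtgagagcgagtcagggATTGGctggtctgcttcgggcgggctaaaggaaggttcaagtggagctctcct
BUB1: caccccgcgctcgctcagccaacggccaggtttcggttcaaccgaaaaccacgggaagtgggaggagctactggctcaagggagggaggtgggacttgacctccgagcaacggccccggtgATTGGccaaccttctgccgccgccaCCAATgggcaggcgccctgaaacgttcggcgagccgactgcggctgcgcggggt
BUB1B: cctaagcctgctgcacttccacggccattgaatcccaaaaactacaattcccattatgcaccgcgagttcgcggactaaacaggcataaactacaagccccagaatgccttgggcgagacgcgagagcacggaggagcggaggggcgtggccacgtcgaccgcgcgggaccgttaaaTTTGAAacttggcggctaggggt
CCNB1, at chr5:69166950-69167149 on the plus strand, held 2 CCAAT and 1 TTTAAA. In TOP2A, at chr17:40417897-40418096 on the minus strand, there were 3 CCAAT and 2 TTTGAA. BUB1, at chr2:110678064-110678263 on the minus strand, held 2 CCAAT, and BUB1B, at chr15:40160869-40161068 on the plus strand, held 1 TTTGAA. CDC25B and CDC25C were the 2 genes with no match in the whole window. Of the 6 called genes that had a window, 4 held TTTGAA or TTTAAA and 3 held CCAAT.

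Transcripts of the mitotic genes differed little between the media. Their summed level was 5593, 5481 and 5643 CPM in the PEG and HS libraries and 5469, 5431 and 5600.4 CPM in the E8 control libraries. The 2 ranges overlapped, the ratio of the means was 1.01, and the genes together took 0.557% ± 0.00830 of the counts in PEG and HS and 0.550% ± 0.00888 in E8 control (SD, n = 3). Of the 40 genes, 7 were called (17.5%), beside 25.3% of all genes tested and 32.4% of the 10069 genes with a mean of at least 10 CPM. BUB3, BUB1B, CENPE and TOP2A were higher in PEG and HS (10.0%, beside 12.2% of all genes), and BUB1, CDC25B and PLK1 were lower (7.50%, beside 13.1%). In 11 of the 40 genes the CPM ranges of the 2 media were apart (27.5%), beside 39.3% of all genes tested.

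Most of the fold changes were close to 0 and closely bounded. The median log2 fold change of the 40 genes was 0.013, beside 0.0031 for all genes tested, and the median of the absolute values was 0.043, beside 0.120 for all genes tested and 0.082 for genes of at least 10 CPM. In 28 of the 40 genes the log2 fold change was within 0.1 of 0. The 95% confidence interval lay within a 1.2-fold change in either direction for 36 genes and within a 1.5-fold change for all 40, the 4 outside the narrower limit being BUB1, CDC25B, BUB3 and CENPA.

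**Figure D1:**
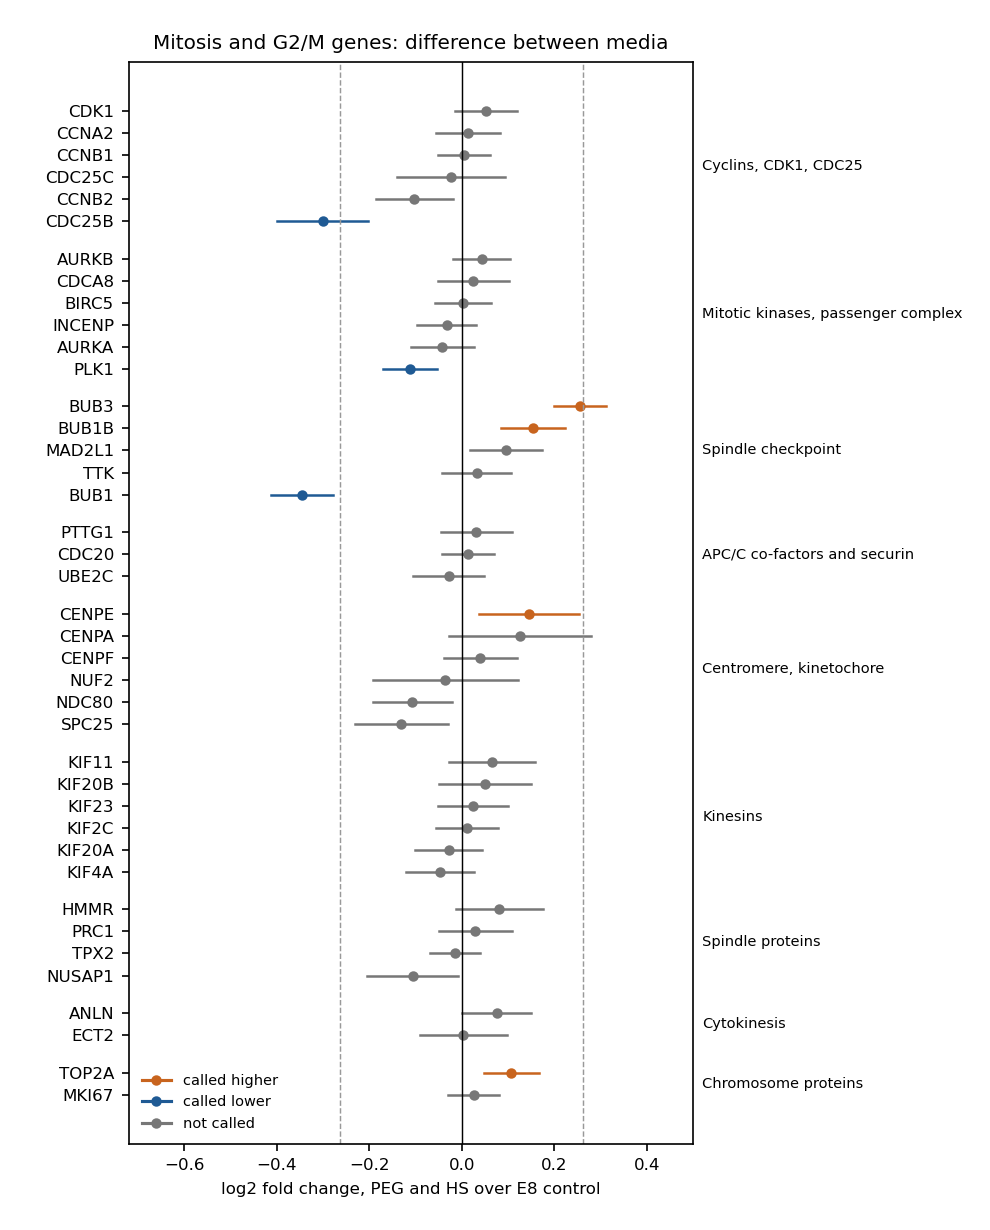
The horizontal axis is the log2 fold change of PEG and HS over E8 control for each of the 40 genes, grouped by role. Points are edgeR estimates, bars their 95% confidence intervals, and dashed lines mark a 1.2-fold change. BUB1 lies farthest to the left at -0.35 and BUB3 farthest to the right at 0.26, with 33 genes in grey that were not called.

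The genes of the spindle assembly checkpoint moved in both directions. Of the 5 among the 40, BUB3 and BUB1B rose, BUB1 fell, and MAD2L1 and TTK were not called. The 3 called are 60.0% of the 5, beside 25.3% of all genes tested. Of further checkpoint genes outside the 40, MAD1L1 was called lower (-0.15, adjusted p = 0.0401, edgeR) and ZWILCH higher (0.12, adjusted p = 0.0265, edgeR). ZW10, KNTC1 and KNL1 were not called. BUB1 encodes a checkpoint kinase that sits at kinetochores and phosphorylates histone H2A near the centromere. Its level was 198, 188 and 199 CPM in PEG and HS, against 247, 242 and 256 CPM in E8 control. Every PEG and HS library was below every control library, and the log2 fold change was -0.35 (SE 0.031, adjusted p = 8.05e-07, edgeR). BUB1 was also the only one of the 40 genes called when the test asked for a change of more than 1.2-fold (adjusted p = 0.0415, edgeR). That is 2.50% of the 40, beside 5.26% of all genes tested.

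BUB3 encodes the protein that carries BUB1 and BUBR1 to the kinetochore. Its libraries held 246, 245 and 243 CPM in PEG and HS, against 208, 202 and 204 CPM in E8 control. The groups did not overlap, with a log2 fold change of 0.26 (SE 0.026, adjusted p = 2.90e-06, edgeR). BUB1B encodes BUBR1, a subunit of the complex that inhibits the APC/C. It was measured at 224, 218 and 226 CPM in PEG and HS, against 200.2, 192 and 209 CPM in E8 control. All 3 PEG and HS libraries were above the controls, and the log2 fold change was 0.15 (SE 0.032, adjusted p = 0.00245, edgeR).

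MAD2L1, which encodes the MAD2 protein that captures CDC20, was at 87.2 ± 2.18 CPM in PEG and HS, against 81.6 ± 3.38 CPM in E8 control (SD, n = 3). Its groups overlapped and its log2 fold change of 0.10 had an adjusted p of 0.0688 (edgeR). TTK, the kinase also called MPS1 that recruits the other checkpoint proteins, was at 84.3 ± 1.57 and 82.4 ± 3.03 CPM. Added together, the 5 checkpoint genes held 819 to 843 CPM in PEG and HS and 796 to 840.0 CPM in E8 control, so that the sums of the 2 media overlapped while BUB1 and BUB3 each did not. The 3 called genes of these 5 lie on different chromosomes. Among the genes tested within 1 Mb, 2 of 11 were called higher and 3 lower around BUB1, and 1 of 16 higher and 5 lower around BUB3. Around BUB1B, 4 of 31 were called in each direction. Around the other called members, 1 of 27 was higher and 3 lower for CDC25B, and 0 of 16 higher and 6 lower for PLK1. For CENPE 1 of 9 was higher and 0 lower, and for TOP2A 5 of 31 were higher and 6 lower. Of all genes tested, 12.2% were called higher and 13.1% lower.

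**Figure D2:**
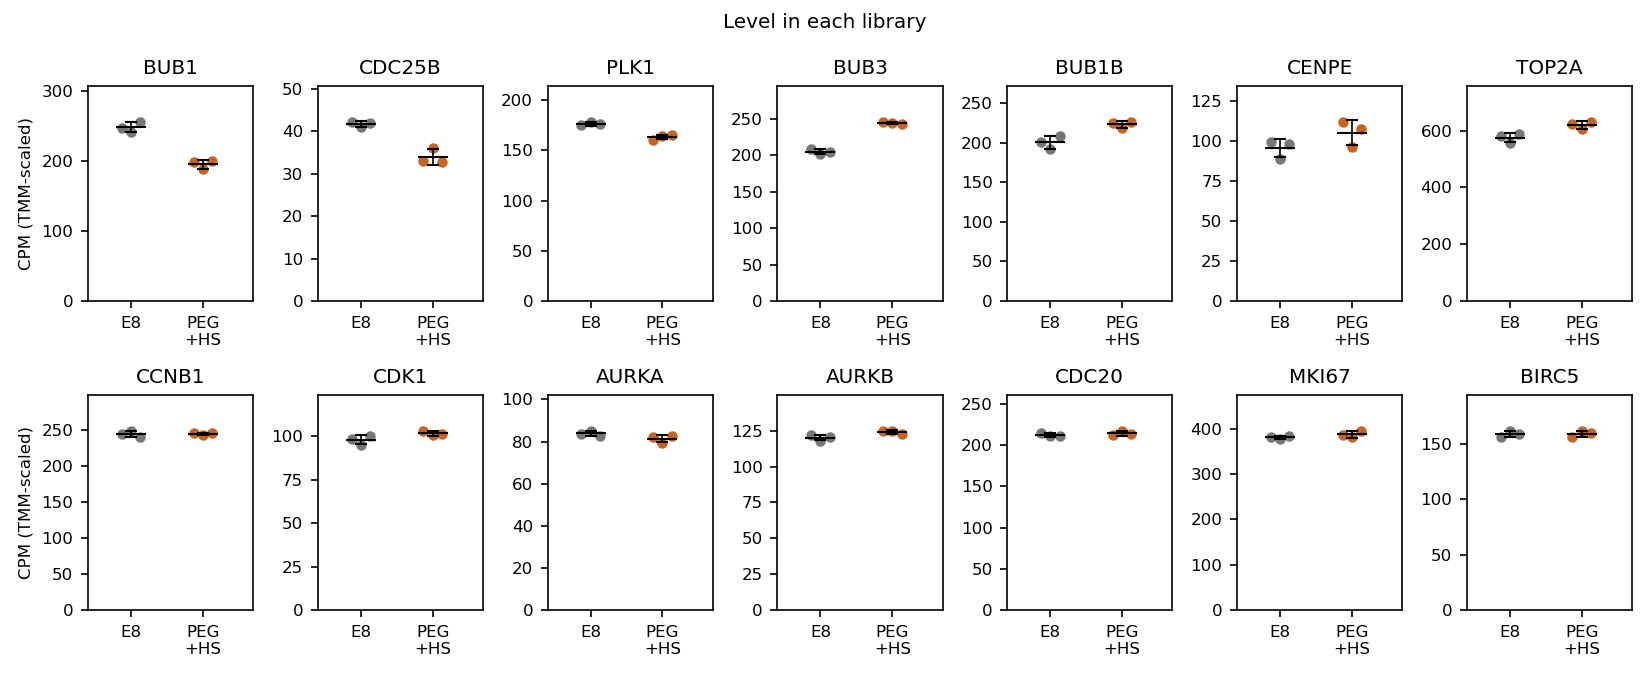
Each panel shows 1 gene, with its level in TMM-scaled CPM on a vertical axis that starts at 0. Points are libraries of E8 control (grey) and of PEG and HS (orange), and bars give the mean and SD of 3 libraries. The upper row holds the 7 called genes, of which only CENPE overlaps between the media, and the lower row 7 genes that were not called.

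Among the 6 cyclin, CDK1 and CDC25 genes of mitotic entry, 1 was called. CDC25B, the phosphatase that first activates CDK1 at the centrosome, was at 32.9, 36.1 and 32.8 CPM in PEG and HS, against 42.2, 41.0 and 42.0 CPM in E8 control. No PEG and HS library reached the lowest control, and the log2 fold change was -0.30 (SE 0.046, adjusted p = 0.000165, edgeR). CDC25C, the related phosphatase that acts at mitotic onset, was at 21.9 ± 0.988 and 22.2 ± 0.892 CPM (SD, n = 3), with a log2 fold change of -0.02.

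CCNB1, the main mitotic cyclin, held 246, 244 and 246 CPM in PEG and HS, against 244, 249 and 240.0 CPM in E8 control. The libraries were interleaved, and the 95% interval of its log2 fold change ran from -0.05 to 0.06. CDK1, its partner kinase, was at 103, 101 and 102 CPM in PEG and HS, against 98.5, 95.2 and 100.4 CPM in E8 control. These groups did not overlap by a narrow margin, and the log2 fold change of 0.05 (SE 0.031) was not called (adjusted p = 0.246, edgeR). CCNA2, cyclin A, gave 142 ± 5.62 and 141 ± 2.0 CPM. CCNB2, the second B-type cyclin, gave 95.4 ± 5.67 CPM in PEG and HS, against 102 ± 1.35 CPM in E8 control, with a log2 fold change of -0.10 and an adjusted p of 0.0684 (edgeR).

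Of the 6 mitotic kinases and chromosomal passenger proteins, PLK1 was called. PLK1, the polo-like kinase needed for centrosome maturation and spindle assembly, was at 160.6, 164.4 and 164.9 CPM in PEG and HS, against 174.9, 178.4 and 175.8 CPM in E8 control. The groups were separate, with a log2 fold change of -0.11 (SE 0.027, adjusted p = 0.00684, edgeR). PLK1 transcripts are 57.2% GC, and after a correction for the trend of each library with GC content and length, the log2 fold change was -0.05 and the call was lost (adjusted p = 0.148, edgeR).

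AURKA, the spindle pole kinase, held 82.2, 79.4 and 82.6 CPM in PEG and HS, against 83.7, 85.1 and 82.7 CPM in E8 control. AURKB, the kinase of the passenger complex, held 124, 125 and 122 CPM in PEG and HS, against 122, 118 and 121 CPM in E8 control. Neither gene was called, although in both the media were apart in CPM, with log2 fold changes of -0.04 and 0.04. BIRC5, which encodes survivin, held 156, 161 and 160.3 CPM in PEG and HS, against 156, 162 and 159 CPM in E8 control. Its log2 fold change was 0.0028 (SE 0.028), with a 95% interval from -0.06 to 0.06. The other passenger subunits, INCENP and CDCA8 (borealin), had log2 fold changes of -0.03 and 0.02.

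Mitotic exit genes showed no called change. CDC20, the activator that brings the APC/C its mitotic substrates, was at 212, 218 and 214 CPM in PEG and HS, against 215, 211 and 211 CPM in E8 control. Those libraries overlapped throughout, and the log2 fold change was 0.01 (SE 0.026). UBE2C, the ubiquitin-conjugating enzyme of the APC/C, was at 127 ± 5.76 and 129.8 ± 3.88 CPM, and PTTG1, which encodes securin, at 91.6 ± 0.714 and 89.7 ± 4.25 CPM (SD, n = 3). After the correction for GC content and length, CDC20 (0.09, adjusted p = 0.0155, edgeR) and AURKB (0.11, adjusted p = 0.00531, edgeR) were called higher. The same correction also added calls as lower, for NDC80 and SPC25 of the kinetochore.

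Of the 6 centromere and kinetochore genes, CENPE was called. CENPE, the kinesin that moves chromosomes to the spindle equator, held 112, 96.5 and 107 CPM in PEG and HS, against 99.1, 89.0 and 98.1 CPM in E8 control. The second PEG and HS library lay below 2 of the 3 controls, and the log2 fold change of 0.15 (SE 0.051) had an adjusted p of 0.0480 (edgeR). The call was lost when any library other than that one was left out (adjusted p = 0.0554 to 0.239, edgeR) and after the correction for GC content and length (adjusted p = 0.0973, edgeR). NDC80 and SPC25 encode subunits of the NDC80 complex, the microtubule anchor of the kinetochore. Both were below their controls in every PEG and HS library, with log2 fold changes of -0.11 and -0.13 and adjusted p of 0.0655 and 0.0546 (edgeR). After the correction for GC content and length both were called lower. NUF2, another subunit, was at 23.3 ± 2.85 and 23.9 ± 1.06 CPM (SD, n = 3). CENPA, the histone H3 variant of centromeres, had a log2 fold change of 0.13 (SE 0.072), the widest interval after that of NUF2 among the members and from -0.03 to 0.28. CENPF, a large protein of the outer kinetochore, was at 375 ± 16.7 and 365 ± 16.8 CPM.

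Besides CENPE, which was grouped with the kinetochore genes, the kinesins, spindle proteins and cytokinesis genes held no called member. The 6 other kinesins, among them KIF11 (Eg5, which pushes spindle poles apart), KIF23 and KIF20A of the midzone and midbody, KIF2C (MCAK, a microtubule depolymerase) and the chromosome-bound KIF4A, had log2 fold changes from -0.05 to 0.07. TPX2, the targeting factor and activator of Aurora A, was at 301 ± 1.19 and 304 ± 4.10 CPM (SD, n = 3). HMMR, a spindle pole protein, and NUSAP1, a microtubule-bundling protein, marked the range of the spindle group at 0.08 and -0.11. Among the cytokinesis genes, ANLN, an actin-binding protein of the cleavage furrow, had a log2 fold change of 0.08, and ECT2, the exchange factor for RhoA at the furrow, of 0.0035.

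Sequence shared with other annotated genes touches a few of these values. NUSAP1 shares 77.1% and PRC1, the midzone bundling protein, 53.3% of their transcript sequence with a neighbouring readthrough gene in GENCODE 44, so that how their reads were divided is uncertain. With the counts of such copies added, PRC1 was called higher, with a log2 fold change of 0.10 and an adjusted p of 0.0336 (edgeR), where its own counts gave 0.03.

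Both chromosome proteins were among the most counted members. TOP2A, the topoisomerase that untangles sister chromatids, was at 623, 606 and 631 CPM in PEG and HS, against 579.8, 558 and 589 CPM in E8 control. The lowest PEG and HS library lay above the highest control, with a log2 fold change of 0.11 (SE 0.028, adjusted p = 0.00963, edgeR). Without the second control library, which held the lowest TOP2A level, the call was lost at 0.08 (adjusted p = 0.0560, edgeR). MKI67, the Ki-67 antigen that coats mitotic chromosomes and marks cycling cells, was at 386, 382 and 395 CPM in PEG and HS, against 381, 377 and 384 CPM in E8 control. Its groups overlapped, and the log2 fold change was 0.03 (SE 0.026, adjusted p = 0.517, edgeR).

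Levels between genes were compared per kilobase of exon, taking all exons of a gene in GENCODE 44 together. In E8 control the highest levels were those of CDC20 (106 ± 1.13 CPM per kb), UBE2C (101 ± 3.02), CCNB1 (100.5 ± 1.88), TOP2A (90.3 ± 2.48) and TPX2 (84.3 ± 1.14 CPM per kb, SD, n = 3). UBE2C and CCNB1 did not differ beyond their spread, and a gap separated TPX2 from the next gene, AURKB, at 53.6 ± 0.901 CPM per kb. The lowest were CENPA (7.41 ± 0.673), NUF2 (7.12 ± 0.316) and CDC25C (6.68 ± 0.268 CPM per kb), whose neighbours in that order lay within about their spread of each other. In PEG and HS the level of CDC20 was 107 and that of CDC25C 6.59 CPM per kb. BUB1 and BUB3 stood at 39.3 and 25.1 CPM per kb in E8 control and at 30.9 and 29.9 CPM per kb in PEG and HS.

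**Figure D3:**
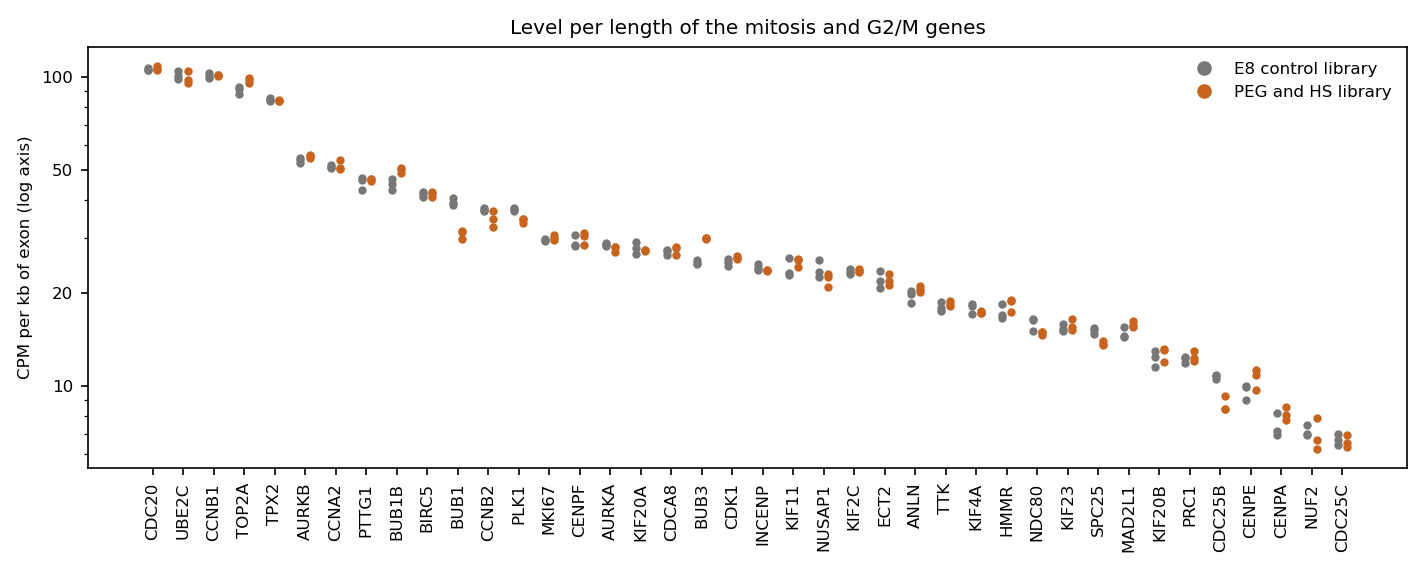
The vertical axis is the level in CPM per kilobase of exon on a log axis, and the genes are ordered by their mean in E8 control. Each point is 1 library, grey for E8 control and orange for PEG and HS. The genes from CDC20 to TPX2 stand above the rest. Points of the 2 media are apart for 11 of the 40 genes (27.5%, beside 39.3% of all genes tested), most widely for BUB1, BUB3 and CDC25B.

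Within a medium, the mitotic genes also varied from library to library. In the third E8 control library 27 of the 40 genes were above their medium's mean, and in the second PEG and HS library 28 were below it. In 4 of the 6 libraries the distance of each gene from its medium's mean varied with the GC content of its transcripts. Across the 40 genes, Pearson's r with GC content was -0.53, 0.60 and -0.26 in the PEG and HS libraries and 0.03, 0.52 and -0.46 in the E8 control libraries. These are descriptions across genes, which share libraries and are not independent. KIF20B (34.2% GC) and CENPE (35.1%), the members of lowest GC content, were lowest in the second library of both media. The part of GC content in the differences between media was measured only through the corrected fit, in which 9 of the 40 genes (22.5%) were called, beside 29.5% of all genes tested.

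**Figure D4:**
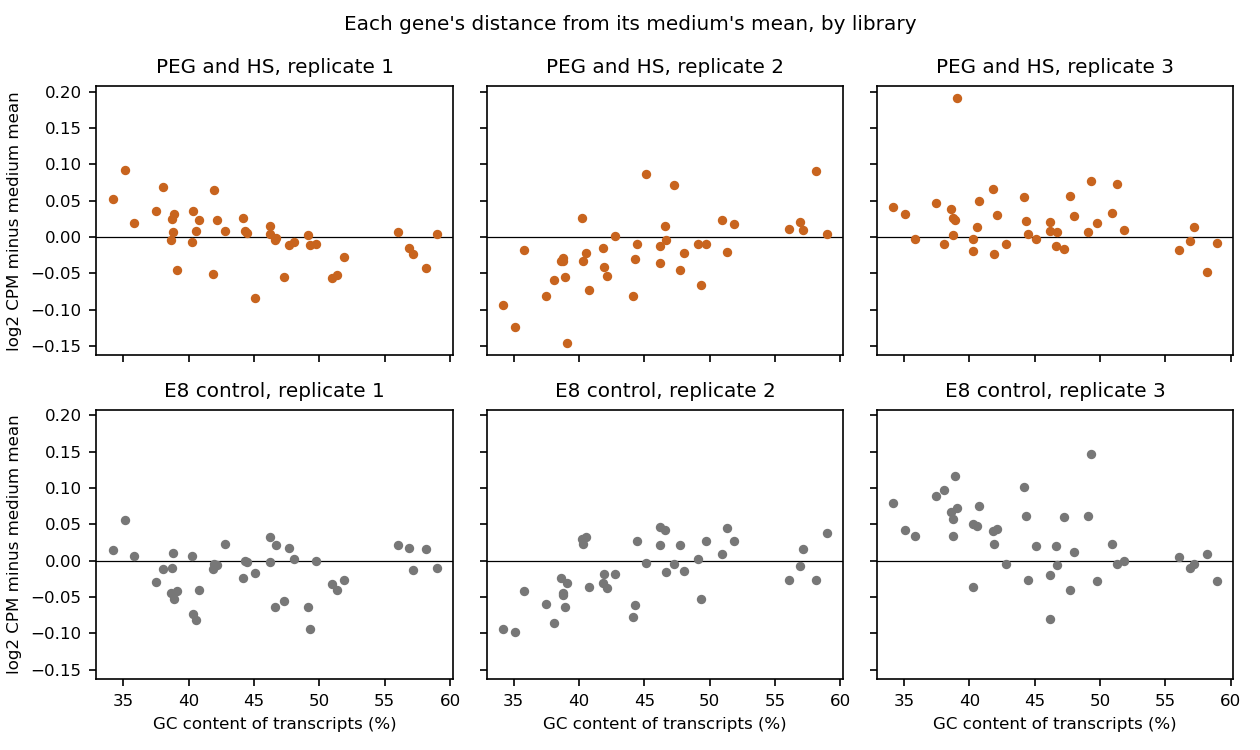
Each panel is 1 library and each point 1 of the 40 genes. The horizontal axis is the GC content of the gene's transcripts in percent, and the vertical axis is the log2 CPM minus the mean of the 3 libraries of that medium. Points climb to the right in the second library of both media (r = 0.60 and 0.52) and descend in PEG and HS replicate 1 and E8 control replicate 3 (r = -0.53 and -0.46).

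The other genes of the G2/M pathway were also mostly not called. Of 126 further genes (regulators of entry, the APC/C, cohesin and condensin, kinetochore and spindle), 8 rose and 7 fell (11.9%, beside 25.3% of all genes tested), with a median log2 fold change of 0.020. After the correction for GC content and length 35 of the 126 were called (27.8%), beside 29.5% of all genes tested under the same correction. FOXM1, the forkhead factor that activates late cell cycle genes, was at 194 ± 2.08 CPM in PEG and HS, against 192 ± 2.45 CPM in E8 control (SD, n = 3). MYBL2, which joins the MuvB complex in S phase, was at 273 ± 1.11 and 271 ± 0.321 CPM. LIN54, the MuvB subunit that contacts the CHR, was called lower (-0.22, SE 0.070, adjusted p = 0.0336, edgeR). WEE1, the kinase that holds CDK1 inactive, and FZR1 (CDH1), the APC/C activator of late mitosis and G1, were not called, with log2 fold changes of 0.03 and -0.08.

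The further kinetochore genes gave some of the larger values. PMF1, a subunit of the MIS12 complex that joins the kinetochore to the centromere, was at 61.8 ± 0.986 CPM in PEG and HS, against 79.1 ± 1.15 CPM in E8 control (SD, n = 3), a log2 fold change of -0.36. NCAPG2, a subunit of condensin II, and NUMA1, which anchors microtubules at spindle poles, were each lower at -0.22. Higher values were found for CHEK2, a kinase of the DNA damage checkpoint (0.28), SKA3, which couples kinetochores to microtubule ends (0.23), and G2E3 (0.14).

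The genes of DNA replication and the G1/S transition summed to 5505 to 5645 CPM in PEG and HS and 5465 to 5507 CPM in E8 control. The ratio of the mitotic to the G1/S sum was 1.002 ± 0.0128 in PEG and HS and 1.002 ± 0.0197 in E8 control (SD, n = 3). Of the 43 genes tested, 3 were higher and 4 lower (16.3%, beside 25.3% of all genes tested). RRM2, the small subunit of ribonucleotide reductase (0.23), CCNE1, cyclin E (0.16), and CDC6, a loader of the replicative helicase (0.11), were higher. TK1, thymidine kinase (-0.14), RPA2, a subunit of the single-strand binding complex (-0.12), and CDT1, another helicase loader (-0.10), were lower.

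Regulators upstream of the cycle were also measured. Of 16 CDK inhibitor, D cyclin and related genes, 3 were called higher and 3 lower (37.5%, beside 25.3% of all genes tested). CDKN1C (p57) fell from 27.79 ± 1.696 to 18.1 ± 1.60 CPM, a log2 fold change of -0.62, CDKN1B (p27) by 0.34 and CDK6 by 0.22 on the log2 scale. CCND2 (cyclin D2) was higher at 0.42, MDM2, a ubiquitin ligase, at 0.14, and SFN (14-3-3 sigma) at 0.51 from a low level of 3.13 ± 0.418 CPM in E8 control (SD, n = 3). CDKN1A (p21), a broad CDK inhibitor, was at 11.1 ± 0.553 and 10.1 ± 0.860 CPM and was not called (adjusted p = 0.226, edgeR).

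**Figure D5:**
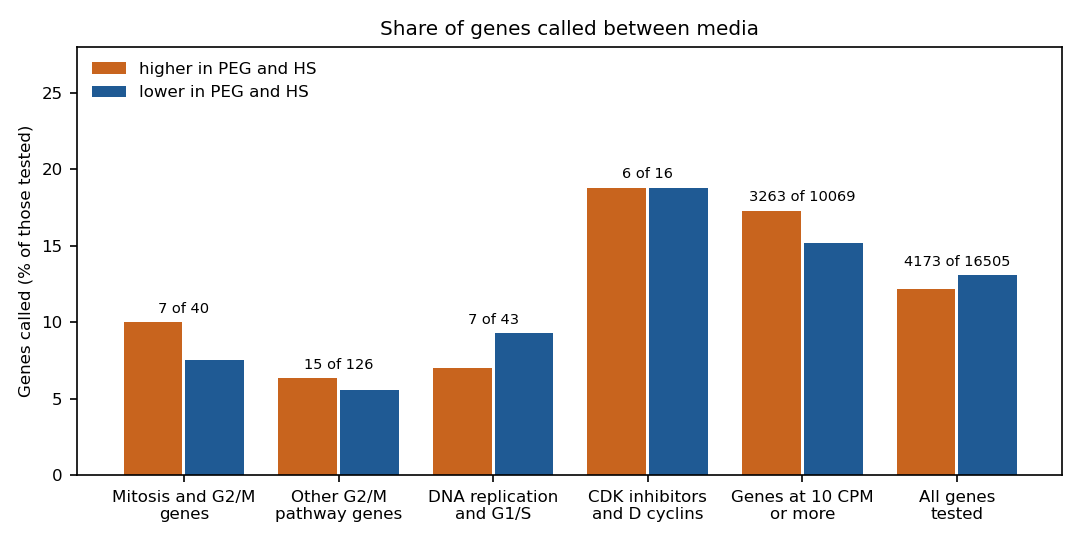
Bars give the percentage of the tested genes of each list that were called higher (orange) or lower (blue) in PEG and HS, and the labels on them the number called of the number tested. The mitotic genes, at 7 of 40, and the other G2/M genes, at 15 of 126, have lower bars than all genes tested, and the CDK inhibitor list, at 6 of 16, has higher ones.

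Transcripts of other cell states were compared as well, and these counts of called genes stand beside 25.3% of all genes tested. All 12 pluripotency markers were detected, with a summed level of 10389 to 10687 CPM in PEG and HS and 10646 to 10896 CPM in E8 control, 5 of them called higher and 4 lower. Of 11 neuroectoderm markers 9 were lower in PEG and HS, where they summed to 573 to 612 CPM against 788 to 819 CPM in E8 control. Mesoderm markers summed to 66.4 to 69.5 and 61.4 to 65.6 CPM, with 1 of 8 higher and 2 lower. KDR made up 59.8 ± 1.74 CPM of the mesoderm sum in PEG and HS (SD, n = 3), and the median mesoderm marker had a log2 fold change of -0.39. Endoderm markers summed to 3.999 to 4.596 and 5.27 to 6.23 CPM, with 0 of 5 called, and those of trophectoderm and amnion to 2.81 to 3.68 and 8.04 to 8.71 CPM, with 2 of 5 lower. SOX17, GATA4 and CDX2 were at or near 0 and CGA was at 0 in every library. Among signs of RNA quality and handling, 8 of 13 mitochondrial messenger RNAs were lower and the 13 together took 4.54% to 4.996% of the counts in PEG and HS, against 5.04% to 5.16% in E8 control, and of 10 stress genes 3 were higher and 1 lower. Their part in the differences of BUB1, BUB3, BUB1B, CDC25B, PLK1 and TOP2A was not tested.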

How the data were processed

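Bulk RNA was sequenced from 6 samples, 3 per medium. The deposited values are raw counts of reads per gene, 1 file per library, without normalization. According to the methods and the submitters' processing notes, the authors enriched polyadenylated RNA, made stranded libraries, trimmed reads with Trim Galore 0.6.7 and mapped them to GRCh38 with STAR 2.6.1; the counting tool, its use of strand and its treatment of multi-mapped reads are not given in the sources used here, so overlapping or near-identical genes are uncertain.

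Symbols, coordinates, exon lengths and GC content came from GENCODE 44 (19916 of 19977 identifiers matched) and promoter windows from RefSeq. Testing used edgeR 4.0.16 in R 4.3.3 (TMM, glmQLFit and glmQLFTest, no covariate) on genes whose 6 counts summed to 10 or more. SE was obtained from the log2 fold change and the F statistic (its size over the root of F). Alternatives were DESeq2 1.42.0, limma 3.58.1 (voom), other scalings and filters, a GC content and length correction, merged copies, a 1.2-fold limit, a replicate block and each library left out. Scripts were tested on simulated data.

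The members and lists were chosen with earlier results of these data known. Values in every library are given for the called genes and for CCNB1, CDK1, AURKA, AURKB, CDC20, MKI67 and BIRC5. Of each other list, the 3 called genes that changed most each way, and FOXM1, MYBL2, LIN54, WEE1, CDKN1A and FZR1, are named. The cell type, mitochondrial and stress lists are given mainly as counts and sums. Any other gene was picked with its values in view. The 95% intervals cover the spread between libraries. 1 gene of the CDK inhibitor and D cyclin list is not reported here.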

Additional observations from a re-analysis of the deposited data

How the results depend on the processing

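Each mitotic gene had at least 364 counts in a library, and each medium had 3 libraries that may share 1 vessel. BUB1, BUB3, BUB1B and CDC25B kept their direction and call under every alternative except, for the last 3, the test against a 1.2-fold change. Under that test 1 mitotic gene was called (2.50%, beside 5.26% of all genes tested), 0 higher and 1 lower. Of 760 fold changes under the alternatives, 39 had another sign than the reported one, all among genes without a call and none farther than 0.042 from 0. The number of mitotic genes called ranged from 6 to 9 with 1 library left out, that of genes higher from 2 (without the second control) to 6, and that of genes lower from 3 to 4. Genes lower numbered 6 with upper quartile scaling, with filterByExpr and with a minimum of 1 CPM in 3 libraries, where CCNB2, NDC80 and SPC25 gained a call. Genes called either way were then 22.5%, 25.0% and 25.0% of the 40, beside 25.1%, 28.6% and 31.3% of all genes. The median log2 fold change lay between 0.0028 and 0.031 under the other scalings and with 1 library left out, the alternatives for which it was computed.

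The replicate numbers were not taken to pair the samples: over genes of at least 1 CPM, deviations of same-numbered libraries from their medium's mean correlated at -0.015, 0.028 and 0.060, and over genes of at least 10 CPM at 0.0028, -0.018 and 0.054. Over the 40 mitotic genes alone they correlated at 0.21, 0.53 and 0.35, but PEG and HS replicate 1 correlated more with E8 control replicate 3 (0.27). The remaining pairs of unlike number correlated at 0.038, -0.25, -0.50, -0.21 and -0.48 over these genes. Whether the numbers share variation in the mitotic genes was not tested. With the number as a replicate block 10 mitotic genes were called (25.0%, beside 26.9% of all genes), 5 of them lower. The gains were CCNB2 (-0.10, adjusted p = 0.0399, edgeR), MAD2L1 (0.10, adjusted p = 0.0307, edgeR) and NUSAP1 (-0.11, adjusted p = 0.0222, edgeR). With the block and the GC content and length correction 11 were called (27.5%, beside 30.8% of all genes), again 5 lower.

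Of the other G2/M genes, 15 were called (11.9%, beside 25.3% of all genes), and 9 with DESeq2 (7.14%, beside 20.6%). With the GC content and length correction 35 were called, without or with the block (27.8%, beside 29.5% and 30.8% of all genes). Against a 1.2-fold change 1 was called (0.794%, beside 5.26%), and 5 at an adjusted p under 0.01 (3.97%, beside 15.8%). With 1 library left out 8 to 14 were called (6.35% to 11.1%, beside 19.0% to 22.5%). Of the G1/S genes, 7 were called (16.3%, beside 25.3% of all genes). With the correction 11 were called (25.6%, beside 29.5%), and with the correction and block 12 (27.9%, beside 30.8%). Against a 1.2-fold change 0 G1/S genes were called (edgeR), beside 5.26% of all genes. Of all genes tested, 868 passed that test, and 1710 at an unadjusted p under 0.05. At an adjusted p under 0.01, 2 G1/S genes were called (4.65%, beside 15.8%). With 1 library left out, 3 (6.98%, without the first PEG and HS library) to 6 (14%) were called, beside 19.0% to 22.5%. The correction moved the median of all genes from 0.0031 to 0.030 on the log2 scale. The cause of these changes was not tested.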
